A study of Homo sapiens with 15 samples.

Results

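The libraries described here are the untreated immortalized human astrocytes of 2 batches, which the sample titles tag b1 and b2. They were chosen by title alone: 3 b1 libraries (numbers 1, 2 and 3) and 3 b2 libraries (numbers 1, 2 and 4), 6 of the 15 samples of the series. The cells are the commercial line IHA, fetal astrocytes immortalized with SV40, grown in serum-containing medium with epidermal growth factor. All samples carry the label WT IDH1, and doxycycline induces the mutant IDH1 R132H in these cells; none of these 6 libraries had received it. Gene expression was measured by a bulk form of MARS-seq, which reads the 3′ ends of polyadenylated RNA and counts unique molecular identifiers (UMIs), so that 1 count stands for 1 captured molecule. A comparison was available from the same table, in which 1 b1 library and 4 b2 libraries came from cells given doxycycline at 1 µg/ml for 7 days. The labels do not say what a batch is, so differences between cultures, RNA extractions and library preparations cannot be told apart here. They also do not say that libraries of a batch came from separate cultures, and each p-value here therefore reflects the spread of these libraries alone, which may be technical.

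Glycolysis turns glucose into pyruvate in the cytosol, and in cultured astrocytes much of that pyruvate leaves the cell as lactate. Many of its enzymes, together with glucose and lactate carriers, are induced by the hypoxia-inducible factor HIF1. Mitochondria hold their own small genome, most of whose transcripts are cut from long precursors and polyadenylated. Reactive astrocytes in turn secrete chemokines and matrix proteins, many of them under NF-kB or TGF-beta control.

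Each level below is in CPM, the UMIs of a gene scaled to 1000000 UMIs of an adjusted library size. That size is the UMIs of the genes that passed the filter, times a TMM scaling factor of edgeR over all 11 libraries. Each difference is b2 minus b1 on the log2 scale with its standard error from edgeR's quasi-likelihood test, and a gene is called where its Benjamini-Hochberg adjusted p over all 12040 genes tested was under 0.05. IDH1, the gene that doxycycline induces in mutant form, had 36.5, 34.9 and 35.7 CPM in b1 and 32.6, 26.4 and 35.2 CPM in b2. The batches overlapped and IDH1 was not called, with a difference of -0.23 ± 0.12 and an edgeR adjusted p of 0.12; the counts do not separate the mutant from the endogenous transcript. Libraries held between 2573290 and 5260837 UMIs. Pearson correlations of log2 CPM were 0.984 to 0.988 between libraries of 1 batch and 0.941 to 0.948 between batches, and the first principal component, which separated the batches, held 73.1% of the variance. No pair of libraries agreed within sampling noise, since the chi-square statistic per degree of freedom was at least 1.59. Of the 12040 genes, 6061 (50.3%) were called; 2943 (24.4%) were called higher and 3118 (25.9%) lower in b2, and 57.1% had batches that did not overlap. At least 2-fold differences were called for 767 genes higher (6.37%) and 562 lower (4.67%). These shares are the background against which each group of genes is read. The median difference over all genes was -0.01.

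The astrocyte label was checked against 14 markers, of which 8 were listed in the table and 7 tested. GFAP, AQP4 and ALDH1L1 were not among the genes listed, each of which had at least 6 counts in some library; CD44, an adhesion receptor of astrocyte progenitors and many cultured cells, had 497 to 510 CPM in b1 and 454 to 493 CPM in b2. Summed astrocyte markers had 814 to 847 CPM in b1 and 653 to 708 CPM in b2, with 3 of 7 called lower (5 without b2 library 1). Those called lower included ALDOC, a glycolytic enzyme described below. Markers of other cell types also differed. The summed epithelial markers had 1135 to 1195 CPM in b1 and 729 to 762 CPM in b2, with 5 of 8 lower, and KRT18, a simple epithelial keratin, differed by -0.69 ± 0.06. The fibroblast and pericyte markers summed to 812 to 932 CPM in b1 and 553 to 571 CPM in b2, with 4 of 5 lower and THY1 higher. Most of the b1 sum was COL1A1, a collagen gene described below that was lower in b2. The 3 neuronal markers tested were 1 higher and 1 lower, the lower being ENO2, a glycolytic enzyme described below. Summed neural stem and progenitor markers had 6144 to 6884 CPM in b1 and 6719 to 7820 CPM in b2, with 1 of 6 higher and 3 lower. Oligodendrocyte and endothelial markers were each 1 higher and 1 lower of 3, and the 1 microglial marker tested was higher. With DESeq2, 0 members of these last 3 lists were called higher. The part that a different mixture of cells had in the results was not tested, and in bulk RNA fewer cells of a type and less RNA per cell cannot be told apart.

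Glycolytic genes were lower in b2 along nearly the whole pathway. Of the 25 members of the glucose uptake and glycolysis list, 19 were called lower and 1 higher, against the background of 25.9% lower and 24.4% higher. Their median difference was -0.91, against -0.01 over all genes, and 22 of 25 had batches that did not overlap. The list summed to between 28383 and 32153 CPM in b1 and between 15845 and 16712 CPM in b2.

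SLC16A3 (chr17:82228397-82261129 in the GRCh38 annotation), the carrier that exports lactate from glycolytic cells, had 672, 636 and 620 CPM in b1 and 157, 114 and 173 CPM in b2. Every b1 library stood far above every b2 library, and the difference was -2.15 ± 0.14 (4.45-fold lower in b2). PFKFB4, which makes the activator of phosphofructokinase, had 39.9, 48.8 and 40.2 CPM in b1 and 13.8, 13.5 and 12.9 CPM in b2. This isoform is a known hypoxia target, and its difference was -1.67 ± 0.14. The related PFKFB3 differed by -1.14 ± 0.10. ENO2, the neuronal form of enolase, had 393, 342 and 379 CPM in b1 and 125, 144 and 134 CPM in b2. Its difference was -1.49 ± 0.07, while ENO1, the ubiquitous enolase, differed by -0.91 ± 0.07. PFKL, the liver form of phosphofructokinase, had 353, 340 and 355 CPM in b1 and 122, 135 and 146 CPM in b2, a difference of -1.40 ± 0.07.

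The core enzymes were also lower. PGK1, the first enzyme of the pathway to make ATP, had 1773, 1630 and 1744 CPM in b1 and 815, 819 and 833 CPM in b2. Libraries of 1 batch lay close together, and the difference was -1.08 ± 0.06 with an edgeR adjusted p of 5.4e-14. PKM, pyruvate kinase, differed by -0.98 ± 0.07, PGAM1, phosphoglycerate mutase, by -1.06 ± 0.08 and ALDOC, the brain form of aldolase, by -1.20 ± 0.09. GAPDH, often used as a reference gene, had 11459, 9978 and 9724 CPM in b1 and 5416, 5644 and 6529 CPM in b2. Its batches did not overlap, and it differed by -0.85 ± 0.07. At the entry to the pathway, the glucose carrier SLC2A1 differed by -0.79 ± 0.07, and the hexokinases HK1 and HK2 by -0.59 ± 0.06 and -0.98 ± 0.17.

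Not all members moved this way. SLC16A1, the lactate and pyruvate carrier of most tissues, was the 1 member called higher, with 61.8, 73.3 and 94.9 CPM in b1 and 112, 105 and 116 CPM in b2 (0.50 ± 0.12). The 2 lactate dehydrogenase subunits varied within b2. LDHB, which favours the conversion of lactate to pyruvate, had 259, 242 and 263 CPM in b1 but 179, 87.6 and 38.7 CPM in b2. All b2 libraries were below all b1 libraries but spread widely among themselves, and LDHB was not called (-1.31 ± 0.53, edgeR adjusted p = 0.12); without b2 library 1 it was (-1.92, edgeR adjusted p = 0.0255). LDHA had 1642, 1338 and 1359 CPM in b1 and 1242, 1086 and 769 CPM in b2 and was not called either (-0.50 ± 0.22, edgeR adjusted p = 0.14). LDHA was called lower without b2 library 4 (-0.32, edgeR adjusted p = 0.00412), in a fit of all 11 libraries (-0.48) and with an offset for GC content and A-rich windows (-0.82). The 3 remaining uncalled members, ALDOA, PFKFB2 and TIGAR, had fewer than 6 CPM in every library.

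**Figure D1:**
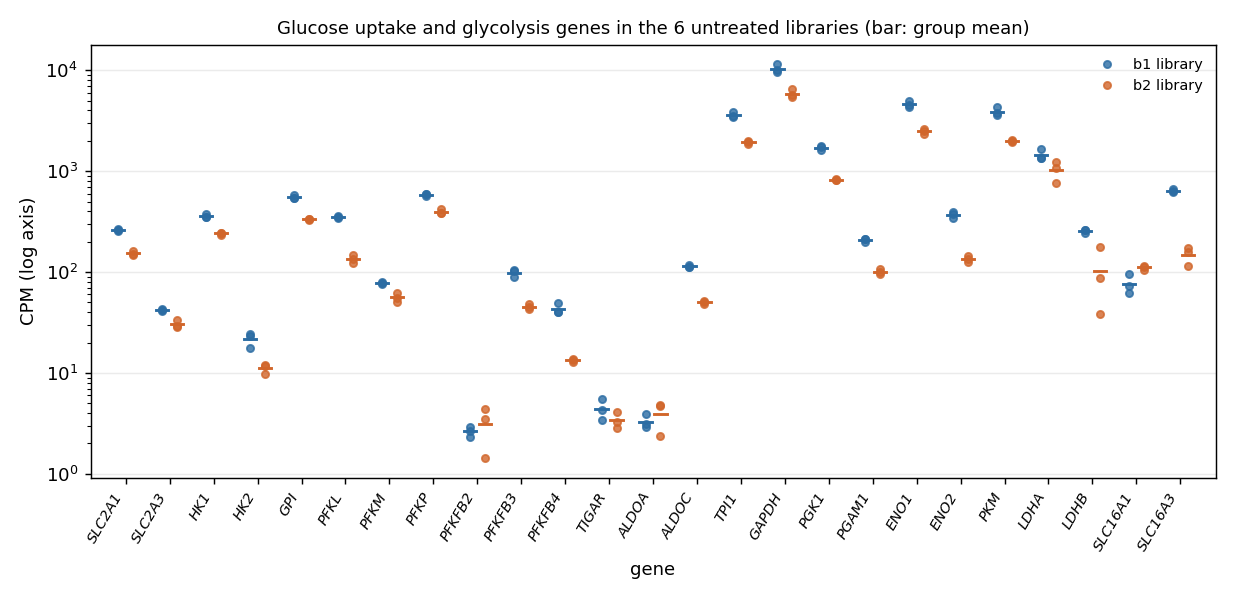
Levels of the 25 glucose uptake and glycolysis genes in the 6 untreated libraries, in CPM on a log axis. Each point is 1 library, blue for b1 and orange for b2, and each bar is a group mean; 19 genes sit lower in b2, SLC16A1 sits higher, and LDHB spreads widely within b2.

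Pathways that branch off glycolysis were less uniform. Of 13 pentose phosphate and glycogen genes, 6 were called lower and 1 higher, with a median of -0.14. PGM1, which links glucose phosphate to glycogen, differed by -1.17 ± 0.07. TKT, a transketolase that returns pentose carbon to glycolysis, was the member called higher (0.58 ± 0.07).

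Several targets of the hypoxia-inducible factors other than glycolytic enzymes were lower too. Of 20 hypoxia targets tested, 11 were called lower and 3 higher, with a median of -0.41, and 15 had batches that did not overlap. CA9, a carbonic anhydrase at the cell surface and a common marker of hypoxic cells, had 88.4, 73.3 and 73.7 CPM in b1 and 23.7, 21.7 and 19.4 CPM in b2. Its difference was -1.87 ± 0.12. ANGPTL4, a secreted inhibitor of lipoprotein lipase, had 22.4, 15.5 and 21.4 CPM in b1 and 4.11, 4.74 and 5.02 CPM in b2, a difference of -2.15 ± 0.21. BNIP3, a mitophagy receptor, had 362, 353 and 334 CPM in b1 and 214, 216 and 196 CPM in b2 (-0.76 ± 0.07). NDRG1, a stress-induced gene, differed by -1.21 ± 0.09 and P4HA2, a collagen prolyl hydroxylase, by -0.99 ± 0.07. HILPDA, a lipid droplet protein, LOX, which crosslinks collagen, and BNIP3L, a relative of BNIP3, were the 3 called higher, by 0.56 ± 0.11, 0.55 ± 0.08 and 0.38 ± 0.07. BNIP3L was not called once the trend of the differences with transcript GC content, described below, had been removed by an offset (0.09, edgeR adjusted p = 0.271). VEGFA, the angiogenic growth factor, was not called (-0.20 ± 0.09, edgeR adjusted p = 0.055), but was called without b1 library 1 (-0.26, edgeR adjusted p = 0.0236).

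The promoters of some of these genes hold the core of the hypoxia response element, spelled ACGTG or GCGTG on either strand. In RefSeq windows from 250 bases before to 50 bases after the start site (GRCh38.p14), 48.4% of all promoters and 64.6% of those of 9200 tested genes hold at least 1 such core. Among glycolysis members, 16 of 22 matched promoters (72.7%) hold it, and among those called lower 12 of 18 (66.7%). Among hypoxia targets 13 of 16 (81.2%) hold it, and 8 of the 10 called lower. A few stretches are printed to show where the cores lie in genes that were lower in b2, with the cores of either strand in capitals. They are PGK1 at chrX:78104028-78104077 on the plus strand, ENO2 at chr12:6914438-6914487 on the plus strand, PFKFB4 at chr3:48556944-48556993 on the minus strand and BNIP3 at chr10:131982014-131982073 on the minus strand.
PGK1: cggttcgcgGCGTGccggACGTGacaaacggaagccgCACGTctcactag
ENO2: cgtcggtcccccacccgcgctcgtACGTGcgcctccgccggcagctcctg
PFKFB4: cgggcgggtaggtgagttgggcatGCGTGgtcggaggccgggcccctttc
BNIP3: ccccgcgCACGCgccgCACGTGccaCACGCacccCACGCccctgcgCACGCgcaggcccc
PGK1 and BNIP3 hold several cores within a short stretch, whereas ENO2 and PFKFB4 hold 1 each in the stretches shown. A match to these letters is a description of the sequence and not evidence of binding.

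Transcripts of the mitochondrial genome showed large falls in b2 and also some rises. Of its 13 protein genes, 8 were called lower in b2 and 3 higher, with a median of -1.07, and 10 of 13 had batches that did not overlap. Their summed level was 13619 to 14660 CPM in b1 and 9550 to 11226 CPM in b2. All mitochondrially encoded genes together took 1.53% ± 0.0382 of UMIs in b1 and 1.26% ± 0.0439 in b2 (SD, n = 3 each; exact permutation test, two-sided, p = 0.1, the smallest that 3 against 3 allows).

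MT-CO2 (chrM:7586-8269), subunit 2 of cytochrome c oxidase, had 1413, 1404 and 1356 CPM in b1 and 43.5, 62.9 and 56.0 CPM in b2. The batches were separated by more than an order of magnitude, a difference of -4.69 ± 0.09 (25.9-fold lower in b2; edgeR adjusted p = 3.9e-19). MT-CYB, the cytochrome b of complex III, had 352, 277 and 293 CPM in b1 and 29.5, 35.8 and 35.2 CPM in b2 (-3.22 ± 0.10). MT-ND4, a subunit of complex I, had 1117, 1052 and 974 CPM in b1 and 101, 138 and 151 CPM in b2 (-3.04 ± 0.13). Other complex I subunits differed less: MT-ND4L by -1.91 ± 0.37, MT-ND2 by -1.62 ± 0.19, MT-ND3 by -1.49 ± 0.18 and MT-ND1 by -1.07 ± 0.07. MT-CO3, subunit 3 of cytochrome c oxidase, differed by -0.24 ± 0.07, its batches overlapped, and its call was lost without b2 library 2 (-0.14, edgeR adjusted p = 0.0688). The ATP synthase subunits MT-ATP6 (-0.28 ± 0.25) and MT-ATP8 (-0.67 ± 0.41) were not called, but MT-ATP8 was called without b1 library 3 (-1.05, edgeR adjusted p = 0.00060).

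In the other direction, MT-ND6, the one complex I subunit encoded on the light strand, had 16.8, 17.8 and 17.7 CPM in b1 and 76.9, 110 and 89.3 CPM in b2 (2.39 ± 0.13). The labels do not say whether reads were counted by strand, so the MT-ND6 counts may include reads of the opposite strand. MT-ND5 had 272, 343 and 285 CPM in b1 and 553, 596 and 562 CPM in b2 (0.91 ± 0.07). MT-CO1, the catalytic subunit of cytochrome c oxidase, had 777, 836 and 934 CPM in b1 and 1342, 3283 and 2433 CPM in b2, a wide spread within b2 (1.45 ± 0.37, edgeR adjusted p = 0.033). The MT-CO1 call was lost without any single library but b2 library 1, with edgeR adjusted p from 0.0688 without b2 library 2 to 0.112 without b1 library 1, while DESeq2 gave an adjusted p of 0.000165. The nuclear pseudogene MTCO1P40, a near-identical copy of MT-CO1 whose reads may be shared with it, had 22.7, 124 and 68.5 CPM in b2, the same order of libraries as MT-CO1, and its call was lost without the same libraries (edgeR adjusted p from 0.0528 to 0.117). Thus subunits of the same complexes, transcribed from the same genome, differed in opposite directions.

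**Figure D2:**
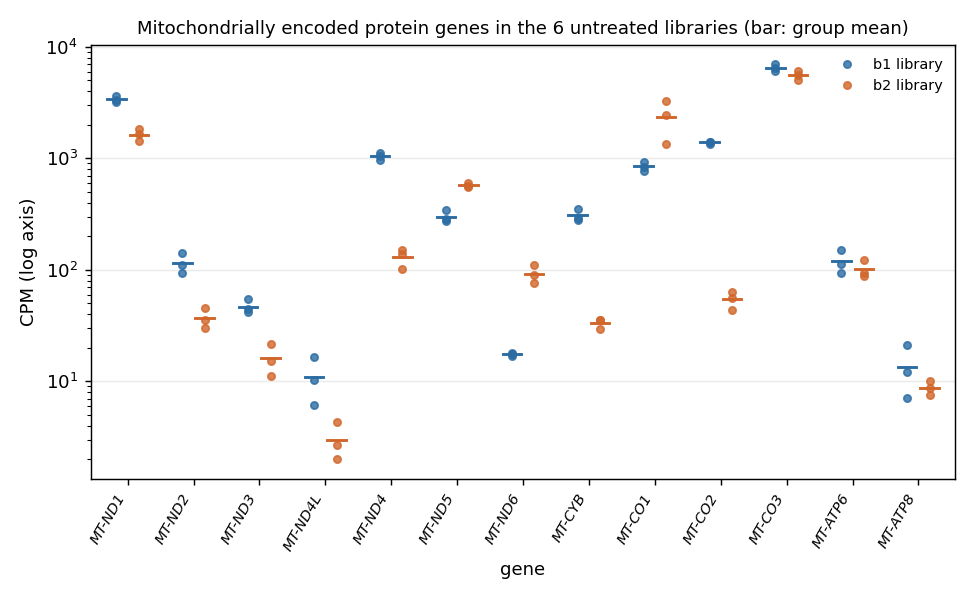
Levels of the 13 mitochondrially encoded protein genes in the 6 untreated libraries, in CPM on a log axis. Each point is 1 library, blue for b1 and orange for b2, and each bar is a group mean; MT-CO2, MT-CYB and MT-ND4 sit far lower in b2, MT-ND6, MT-CO1 and MT-ND5 sit higher, and MT-CO3, MT-ATP6 and MT-ATP8 overlap.

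Among nuclear genes for the respiratory chain, the lower calls outnumbered the higher ones in complexes I, IV and V. Of 36 complex I subunits, 15 were lower and 5 higher (median -0.15); of 25 subunits of complexes IV and V, 16 were lower and 2 higher (median -0.26; 4 higher without b2 library 4, and 1 without b2 library 1 or any 1 of the b1 libraries). NDUFA3, an accessory subunit of complex I, differed by -0.76 ± 0.06 and COX6B1, a subunit of complex IV, by -0.91 ± 0.06. ATP5MPL, a small proteolipid of the ATP synthase, had 45.5, 38.8 and 44.1 CPM in b1 and 7.25, 8.03 and 5.74 CPM in b2 (-2.59 ± 0.15). Of 12 subunits of complexes II and III, 5 were lower and 4 higher. Differences on that list went from -3.14 to 1.12. The largest rise was that of SDHC, a membrane anchor of succinate dehydrogenase (1.12 ± 0.10).

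In the tricarboxylic acid cycle, 11 of 23 genes were called lower and 3 higher (median -0.21). All 3 subunits of the NAD-dependent isocitrate dehydrogenase were lower: IDH3A by -0.53 ± 0.11, IDH3B by -0.58 ± 0.07 and IDH3G by -1.03 ± 0.08. IDH2, the mitochondrial NADP-dependent enzyme, had 196, 193 and 190 CPM in b1 and 162, 163 and 151 CPM in b2 (-0.30 ± 0.07), and was not called with the GC offset (-0.15, edgeR adjusted p = 0.0705). FH, fumarase, was higher by 0.82 ± 0.08. The count of lower members depended on single libraries: 7 of 23 were lower without b1 library 3 or without b2 library 4 and with DESeq2, and 6 when libraries were scaled by their size alone. TFAM, which packages mitochondrial DNA and starts its transcription, had 26.5, 33.3 and 26.0 CPM in b1 and 100, 108 and 90.8 CPM in b2 (1.81 ± 0.11). It was the member of the mitochondrial transcription and translation list with the largest difference; 5 of 25 members were higher (3 without b1 library 1) and 6 lower.

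Matrix genes moved in both directions, chain by chain. Of 17 collagen genes, 7 were called higher and 5 lower, with a median of 0.12. COL1A1, one chain of the main fibrillar collagen, had 798, 776 and 689 CPM in b1 and 267, 238 and 258 CPM in b2 (-1.59 ± 0.07). Its partner chain COL1A2 had 175, 202 and 219 CPM in b1 and 336, 307 and 320 CPM in b2 (0.67 ± 0.07). The 2 chains of collagen I thus differed in opposite directions, in each case without overlap between batches. The basement membrane chains COL4A1 and COL4A2 were both higher, by 0.51 ± 0.08 and 0.60 ± 0.07, and COL7A1, which forms anchoring fibrils, was lower (-1.13 ± 0.09).

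Of 27 matrix glycoproteins and proteoglycans, 11 were lower and 8 higher. FBLN1, an elastic fibre glycoprotein, had 211, 204 and 212 CPM in b1 and 81.2, 79.9 and 79.3 CPM in b2 (-1.40 ± 0.07). FBN1, the main microfibril protein, had 129, 138 and 121 CPM in b1 and 287, 271 and 269 CPM in b2 (1.08 ± 0.07). The laminin chains LAMC1 and LAMB1 were higher by 1.32 ± 0.09 and 0.65 ± 0.07, and FN1, fibronectin, was not called (-0.03 ± 0.06, with 1052 to 1105 CPM in b1 and 1033 to 1118 CPM in b2).

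Genes that process or degrade matrix were more often lower. Of 22 collagen processing and crosslinking genes, 11 were lower and 3 higher (median -0.31); SERPINH1, the collagen chaperone, differed by -1.09 ± 0.07. Of 15 matrix proteases and their inhibitors, 9 were lower and 1 higher (median -0.33). MMP2, a gelatinase, had 129, 148 and 150 CPM in b1 and 69.4, 73.0 and 73.5 CPM in b2 (-1.0 ± 0.08). MMP14, its membrane-bound activator, differed by -0.69 ± 0.09 and the urokinase PLAU by -0.67 ± 0.06. SERPINE2, a protease inhibitor secreted by glia, was the member called higher (0.55 ± 0.07).

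Receptors for the matrix included a large rise in ITGB1, though more of them were called lower than higher. Of 12 integrin genes, 6 were lower and 3 higher, with differences from -1.40 to 2.02. ITGB1, the beta chain shared by many integrins, had 240, 227 and 166 CPM in b1 and 810, 851 and 830 CPM in b2 (1.96 ± 0.13). ITGA3, its partner in a laminin receptor, had 370, 390 and 384 CPM in b1 and 234, 238 and 216 CPM in b2 (-0.75 ± 0.07). ITGA2, its partner in a collagen receptor, differed by -1.40 ± 0.18. THY1, a surface glycoprotein of fibroblasts and neurons that binds integrins, had 53.3, 47.7 and 43.7 CPM in b1 and 256, 272 and 279 CPM in b2 (2.46 ± 0.08). The contractile genes MYL9 and ACTA2 differed by -1.20 ± 0.06 and -1.16 ± 0.13, and among 24 TGF-beta and YAP targets 8 were lower and 4 higher, with a median of 0.00. That list had 2 members higher without b1 library 1.

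Inflammatory genes were more often higher in b2. Of 28 NF-kB and inflammatory genes tested, of 34 on the list, 16 were called higher and 6 lower, with a median of 0.46; 24 of 28 had batches that did not overlap. The list summed to 2438 to 2467 CPM in b1 and 3139 to 3173 CPM in b2. CXCL1 (chr4:73869393-73871242), a neutrophil chemokine, had 106, 102 and 106 CPM in b1 and 203, 214 and 216 CPM in b2 (0.99 ± 0.07, edgeR adjusted p = 7.0e-12). CXCL2, its close relative, had 10.7, 5.81 and 10.8 CPM in b1 and 29, 27.0 and 24.8 CPM in b2 (1.48 ± 0.18). IL6, a cytokine released by reactive astrocytes, had 48.9, 46.5 and 46.8 CPM in b1 and 93.6, 99.1 and 99 CPM in b2 (1.01 ± 0.09). For each of these genes the b2 libraries were all higher than the b1 libraries. CXCL3 and CXCL6, from the same chemokine cluster on chromosome 4, were higher by 1.38 ± 0.27 and 0.92 ± 0.10. NFKBIA, a feedback inhibitor of NF-kB, and its relative NFKBIZ were higher by 0.88 ± 0.08 and 1.15 ± 0.14. SOD2, the mitochondrial superoxide dismutase and an NF-kB target, was higher by 1.25 ± 0.08.

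Members called lower included a chemokine of the same family. CXCL8 had 21.7, 13.2 and 11.3 CPM in b1 and 4.35, 3.10 and 2.87 CPM in b2 (-2.17 ± 0.28), opposite to CXCL1, CXCL2, CXCL3 and CXCL6. ICAM1, a leukocyte adhesion receptor, had 164, 140 and 154 CPM in b1 and 86.6, 85.2 and 72.8 CPM in b2 (-0.92 ± 0.09). NFKB2, the precursor of the noncanonical NF-kB subunit, differed by -0.53 ± 0.11, and by -0.22 with the GC offset, where it was not called (edgeR adjusted p = 0.0641).

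The NF-kB type site searched, GGG followed by any 2 bases and TTTCC on either strand, occurs in 1.92% of all RefSeq promoters and in 2.16% of those of tested genes. It occurs in 11 of 24 matched promoters of the inflammatory list, in 9 of 15 of those called higher and in none of the 4 of those called lower that were matched. The list was put together from known NF-kB targets, so that its promoters hold the site more often than others do is no result of these data. Stretches that hold it are printed below, with the site in capitals, because these genes were higher in b2. They are CXCL1 at chr4:73869283-73869332 (plus strand), CXCL2 at chr4:74099256-74099305 (minus), CXCL3 at chr4:74038750-74038799 (minus), CXCL6 at chr4:73836568-73836617 (plus), IL6 at chr7:22727090-22727139 (plus) and NFKBIA at chr14:35404810-35404859 (minus, where the match lies on the other strand).
CXCL1: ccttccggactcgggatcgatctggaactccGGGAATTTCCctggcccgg
CXCL2: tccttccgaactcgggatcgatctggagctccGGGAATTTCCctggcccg
CXCL3: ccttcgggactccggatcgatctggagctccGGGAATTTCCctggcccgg
CXCL6: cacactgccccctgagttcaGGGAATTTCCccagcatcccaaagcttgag
IL6: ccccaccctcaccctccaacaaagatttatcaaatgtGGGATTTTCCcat
NFKBIA: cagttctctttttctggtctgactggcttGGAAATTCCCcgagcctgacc
The stretches of CXCL1, CXCL2 and CXCL3 are close to identical around the site, which they share with CXCL6.

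Antigen presentation genes did not follow the cytokines. Of 18 tested, 6 were lower and 2 higher, with a median of -0.08. HLA-B, a class I heavy chain, had 1341, 1238 and 1257 CPM in b1 and 846, 811 and 833 CPM in b2 (-0.64 ± 0.06). HLA-C differed by -0.71 ± 0.07; class I genes resemble each other closely, and reads may be split between them. TAPBP, which loads peptide on class I molecules, was lower (-0.74 ± 0.07). Of the inducible proteasome subunits, PSMB9 was lower (-0.89 ± 0.16) and PSMB8 higher (0.48 ± 0.09). B2M, the light chain of class I molecules, had 333, 281 and 236 CPM in b1 and 451, 319 and 150 CPM in b2, a spread within b2 that covered all of b1, and was not called.

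Genes of the amino acid response were also more often higher. This program, driven by ATF4, supplies serine, glycine and transport proteins when amino acids run short. Of 26 members tested, 16 were called higher and 3 lower, with a median of 0.32, and 19 had batches that did not overlap. PSAT1 (chr9:78297143-78330093), the second enzyme of serine synthesis, had 44.1, 39.9 and 40.6 CPM in b1 and 162, 181 and 162 CPM in b2 (2.00 ± 0.09, 4.00-fold higher; edgeR adjusted p = 3.3e-16). PCK2, the mitochondrial PEP carboxykinase, had 28.0, 18.2 and 24.3 CPM in b1 and 72.8, 70.2 and 75.3 CPM in b2 (1.57 ± 0.12). GARS1, the glycyl-tRNA synthetase, had 164, 158 and 148 CPM in b1 and 388, 367 and 374 CPM in b2 (1.25 ± 0.07). The b2 libraries stood apart from the b1 libraries for all 3 genes. MTHFD2, of mitochondrial folate metabolism, was higher by 0.77 ± 0.08, PHGDH, the first enzyme of serine synthesis, by 0.61 ± 0.08 and ATF4 itself by 0.35 ± 0.07. Lower members were STC2, a secreted stress protein (-0.99 ± 0.09), DDIT3, a stress transcription factor (-0.39 ± 0.11), and AARS1, the alanyl-tRNA synthetase (-0.21 ± 0.08). The AARS1 call was lost with DESeq2 (adjusted p = 0.154), with the GC offset (adjusted p = 0.149) and without any single library but b1 library 3 (edgeR adjusted p from 0.0748 to 0.150). The amino acid response site TGATG, any base and AA, on either strand, was searched in the same RefSeq promoters. It occurs in 3.67% of all promoters and in 1.42% of those of tested genes. Of this list, 5 of 21 matched promoters hold it, with 1 of 13 called higher and 1 of 3 called lower.

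Single cell cycle genes differed in both directions. Of 39 replication and S phase genes, 14 were called higher and 9 lower (median 0.07), and of 38 G2/M and mitosis genes 8 were higher and 8 lower (median 0.01). The shares called were 59.0% and 42.1%, against 50.3% over all genes. MKI67, the proliferation antigen, had 109, 149 and 135 CPM in b1 and 258, 257 and 259 CPM in b2 (0.97 ± 0.08). NUSAP1, a spindle protein, had 16.8, 25.2 and 17.4 CPM in b1 and 107, 92.8 and 75.7 CPM in b2 (2.25 ± 0.15). AURKB, a mitotic kinase, had 437, 496 and 515 CPM in b1 and 279, 265 and 293 CPM in b2 (-0.81 ± 0.07). MKI67 and NUSAP1 thus stood opposite to AURKB, and CCNB1, the mitotic cyclin, was not called (-0.08 ± 0.07).

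Replication genes likewise included both directions. RRM1, a subunit of the enzyme that makes deoxynucleotides, was higher by 0.76 ± 0.11, whereas TK1, thymidine kinase, and E2F1, the transcription factor of S phase entry, differed by -0.54 ± 0.06 and -0.74 ± 0.10. Of 26 cyclins, inhibitors of their kinases and genes of cell cycle arrest, 10 were lower and 5 higher. The D-type cyclins CCND1 and CCND3 differed by -0.61 ± 0.07 and -0.72 ± 0.07, and CDKN2A, one of the inhibitors, was higher by 0.38 ± 0.06.

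**Figure D3:**
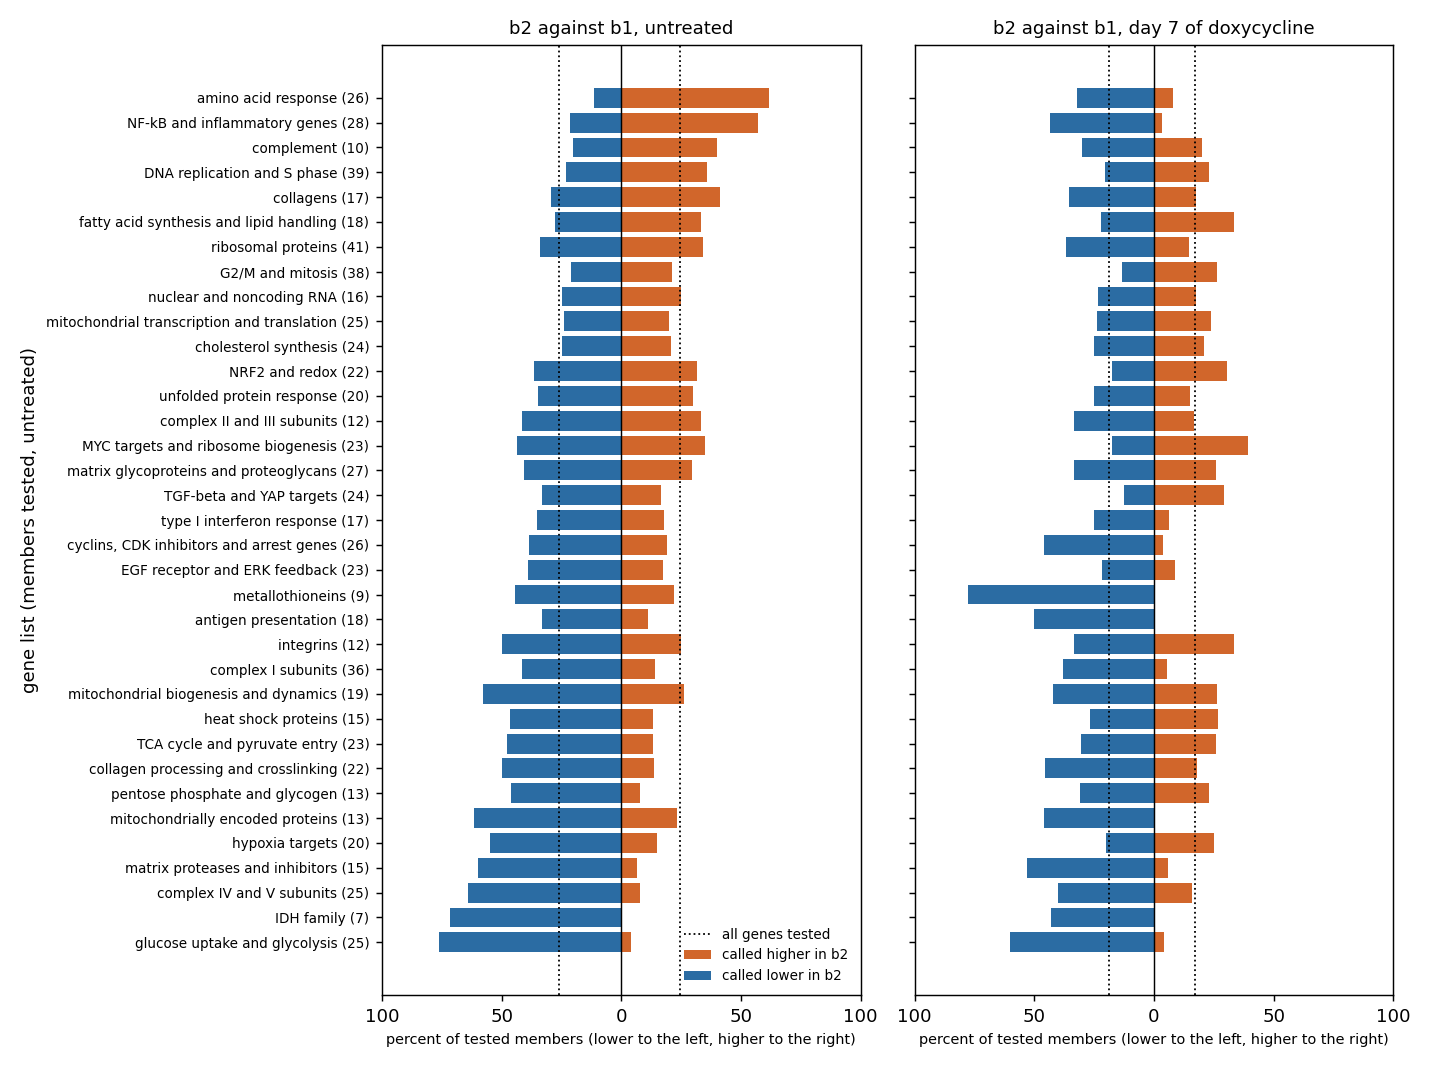
Percent of tested members of each of 35 gene lists called lower (blue, to the left) and higher (orange, to the right) in b2, in untreated cells on the left and after 7 days of doxycycline on the right. Dotted lines give the shares over all genes tested, 25.9% lower and 24.4% higher in untreated cells; the amino acid response and NF-kB lists lie mostly to the right and glycolysis mostly to the left in untreated cells.

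The largest differences included genes of varied function outside these lists, taken from genes that were called, averaged 20 CPM or more and had batches without overlap. Among the 15 largest rises, the replication-dependent linker histone H1-5 had 5.11, 6.20 and 6.62 CPM in b1 and 125, 72.6 and 103 CPM in b2 (4.03 ± 0.31), and H1-1 had 10.7, 14.7 and 9.49 CPM in b1 and 111, 114 and 110 CPM in b2 (3.30 ± 0.12). Such histone transcripts normally end without a poly(A) tail, which the library method primes on. SMC3, a cohesin subunit, had 5.36, 7.75 and 5.96 CPM in b1 and 62.9, 63.1 and 51.3 CPM in b2 (3.25 ± 0.16). EIF3A, a subunit of a translation initiation factor, had 80.3, 84.5 and 72.6 CPM in b1 and 416, 391 and 381 CPM in b2 (2.31 ± 0.08). LHX2, a homeobox transcription factor of the developing forebrain, was higher by 2.95 ± 0.19. Among rises outside that group of 15, MALAT1, a long RNA retained in the nucleus, had 195, 229 and 215 CPM in b1 and 922, 936 and 925 CPM in b2 (2.11 ± 0.07).

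Among the 15 largest falls, besides 3 mitochondrially encoded genes, ATP5MPL, SLC16A3, CA9 and PFKFB4, was SKP1, the adaptor of SCF ubiquitin ligases, with 225, 254 and 241 CPM in b1 and 40.4, 42.5 and 38.0 CPM in b2 (-2.58 ± 0.08). AK4, a mitochondrial adenylate kinase, and CYGB, a cytoplasmic globin, differed by -1.87 ± 0.14 and -1.86 ± 0.12. The processed pseudogene GAPDHP1 differed by -1.87 ± 0.08, and its reads may come from GAPDH.

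The difference between batches moved with the composition of the transcripts. By quintile of transcript GC content, the median difference went from 0.26 in the lowest (27.8% to 41.4% GC) through 0.18, 0.01 and -0.16 to -0.35 in the highest (58.6% to 74.5% GC). By the largest number of A's in any 20-base window of the transcript, its tail left out, the median went from -0.41 at 3 to 9 A's to 0.26 at 16 to 20. The Spearman correlations over 11985 genes were -0.38 with GC content and 0.39 with the A-rich window; genes are not independent replicates, and these are descriptions. The glycolysis list had a median GC content of 54.8%, against 49.0% over all genes tested. With an offset that removes the trend with GC content, chosen after the data were seen, the glycolysis list still had 19 members lower and 1 higher (median -0.70), hypoxia targets had 12 lower and 2 higher, the inflammatory list 14 higher and 2 lower (median 0.29) and the amino acid response 17 higher and 2 lower (median 0.52). The collagen processing list had 5 higher and 10 lower (median -0.16), the tricarboxylic acid cycle list 1 higher and 10 lower, and the G2/M list changed to 16 lower and 6 higher. Among single genes, IDH1 (-0.43), CD44 (-0.26), VEGFA (-0.21) and CCNB1 (-0.28), which were not called before, were called lower with this offset. The part of priming at A-rich stretches in these differences was not tested.

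**Figure D4:**
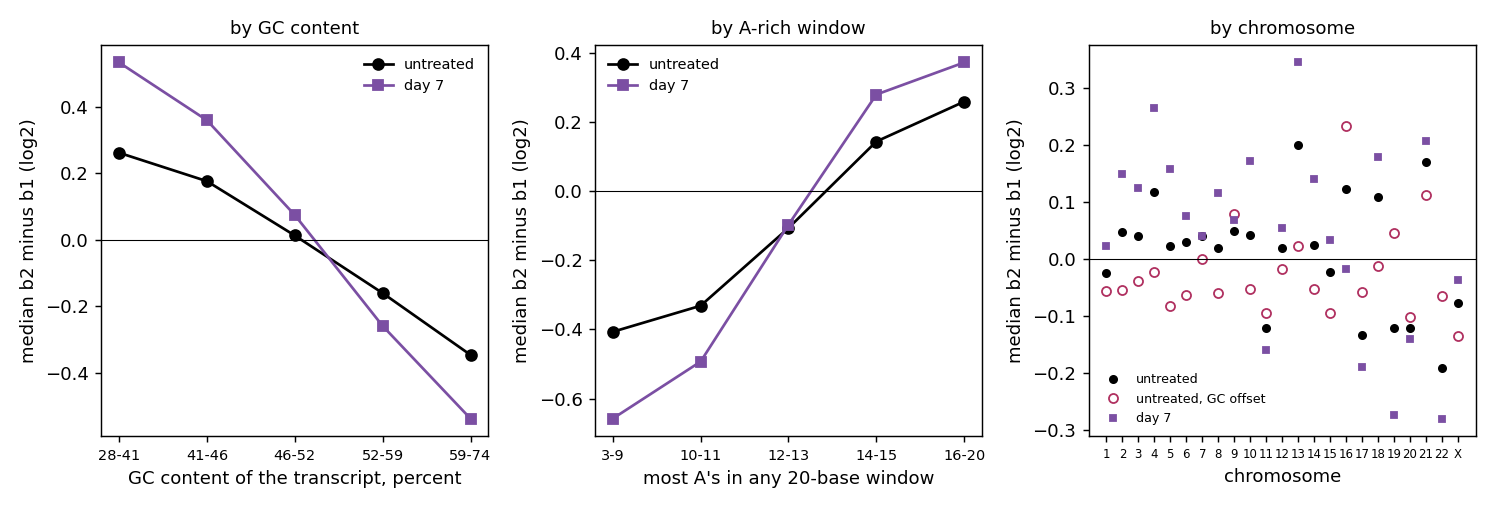
Median log2 difference between b2 and b1 by quintile of transcript GC content, by the largest number of A's in a 20-base window, and by chromosome, for untreated cells (black), day 7 (purple) and, on the right, untreated cells with the GC offset (open red). The medians fall from 0.26 to -0.35 with GC content in untreated cells and rise from -0.41 to 0.26 with the A-rich window.

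Runs of neighbouring genes also differed. Over 10842 overlapping runs of 50 neighbouring tested genes, with the GC trend removed, the median differences had a 5th percentile of -0.23 and a 95th percentile of 0.17. The lowest run, at chrX:151396515-156025710, had a median of -0.74 without the offset and -0.65 with it, with 36 of 50 genes called lower and 5 higher; IDH3G lies in it. A run at chr11:67364168-72814054, which holds CCND1, had a median of -0.61 (-0.36 with the offset), with 30 of 50 lower and 2 higher. A run at chr12:4562204-8242948, which holds GAPDH, TPI1 and ENO2, had a median of -0.37 (-0.35 with the offset). The highest run, at chr16:2963944-8849331, had a median of 0.29 (0.55 with the offset), with 22 of 50 higher and 4 lower, and a run at chr9:77177353-94301454, which holds PSAT1, had 0.42 (0.35). At day 7 the medians of these 5 runs, without the offset, were -0.83, -0.53, -0.38, 0.29 and 0.36. Other extreme runs did not all recur. A run at chr19:1438358-3626815 had -0.02 (0.31 with the offset) and -0.22 at day 7. A run at chr1:56494747-77879539 had -0.06 (-0.33) and 0.38 at day 7, and a run at chr3:111979010-125055958 had -0.10 (-0.32) and 0.06. The extreme runs on chromosomes 4, 6, 7 and 17 kept their sign. These runs were picked for their size, and the copy number of the regions was not measured.

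The day 7 libraries show how far the batch difference recurred in samples that the untreated comparison did not use. Over all 11876 genes tested in both, called or not, 9473 (79.8%) had the same sign in untreated and day 7 cells. The trend with transcript GC content was shared, with day 7 medians from 0.53 in the lowest quintile to -0.54 in the highest. The part of this trend in the recurrence was not tested. At day 7, with 1 b1 library that the fit assumes to vary like the 4 b2 libraries, 2180 of 12585 genes (17.3%) were called higher and 2357 (18.7%) lower in b2. Of 6014 genes called in untreated cells and tested at both, 5610 (93.3%) had the same sign at day 7, and 3476 were called in the same direction, against 35 called in opposite directions. Glycolysis recurred: 15 of 25 members were called lower and 1 higher at day 7 (median -0.68), and those 15 and SLC16A1 had all been called the same way in untreated cells. PGK1 had 1401 CPM in the b1 library and 828, 672, 715 and 733 CPM in the 4 b2 libraries at day 7. SKP1 stood at 226 CPM in b1 and at 36.3, 39.1, 37.0 and 39.4 CPM in b2, and MT-CO2 at 2003 CPM in b1 and at 92.8, 47.5, 51.0 and 82.2 CPM in b2. These levels repeat the separation of the untreated libraries.

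In other groups the difference changed. Greater and smaller differences below take the sign into account. A smaller difference can thus be a more negative one, as for ICAM1, already lower in b2 in untreated cells (day 7 minus untreated, -0.68). Whether the batch difference itself changed between untreated and day 7 cells was tested with an interaction term, which called 326 of 13371 genes (2.44%), 190 (1.42%) with a greater b2 minus b1 difference at day 7 and 136 (1.02%) with a smaller one. Of the inflammatory list, 15 of 30 members tested had a smaller difference at day 7 and 0 a greater one by edgeR's quasi-likelihood test (14 and 0 by DESeq2; 23 and 0 at an unadjusted p under 0.05), and at day 7 itself 1 member was called higher and 13 lower (median -0.31). Of its members called in untreated cells, 1 of 16 was called higher again at day 7 and 5 of 6 lower again. CXCL1 had 826 CPM in b1 and 540, 423, 496 and 510 CPM in b2 at day 7. Its order was thus the reverse of that in untreated cells, with a difference of -0.77 at day 7 and an interaction of -1.75 (edgeR adjusted p = 4.0e-09). IL6 had 165 CPM in b1 and 162, 148, 156 and 145 CPM in b2 at day 7, close to one another where the untreated batches had differed (interaction -1.15, edgeR adjusted p = 1.9e-05). Of the amino acid response list, 9 of 26 members had a smaller difference at day 7 and 0 a greater one by edgeR (9 and 0 by DESeq2; 16 and 1 at an unadjusted p under 0.05). PSAT1 had 45.2 CPM in b1 and 53, 58.2, 57.1 and 66.4 CPM in b2 at day 7 (interaction -1.64, edgeR adjusted p = 8.0e-06), nearer to the untreated b1 level than to the untreated b2 level in both batches. Of the antigen presentation list, 7 of 18 members had a smaller, more negative difference at day 7 and 0 a greater one by edgeR (7 and 0 by DESeq2; 11 and 0 at an unadjusted p under 0.05). At day 7, 9 of 18 were called lower and 0 higher by edgeR (6 and 0 by DESeq2; 10 and 0 at an unadjusted p under 0.05), with a median of -0.55; these include all 6 called lower in untreated cells.

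A few genes of the other groups also had an interaction. Of the hypoxia targets, ANGPTL4 (1.58), NDRG1 (1.03) and BNIP3 (0.57) had a greater, less negative difference at day 7, and 5 of 20 members were then called higher and 4 lower. The interaction was also positive for the integrin ITGA2 (1.89) and the mitotic genes TOP2A (1.25) and BUB1B (0.97). MMP2 (-0.76) was lower in b2 by more at day 7. With 1 b1 library at day 7, each of these tests rests on that library, and the number of genes called ranged from 195 to 687 when other libraries were left out.

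**Figure D5:**
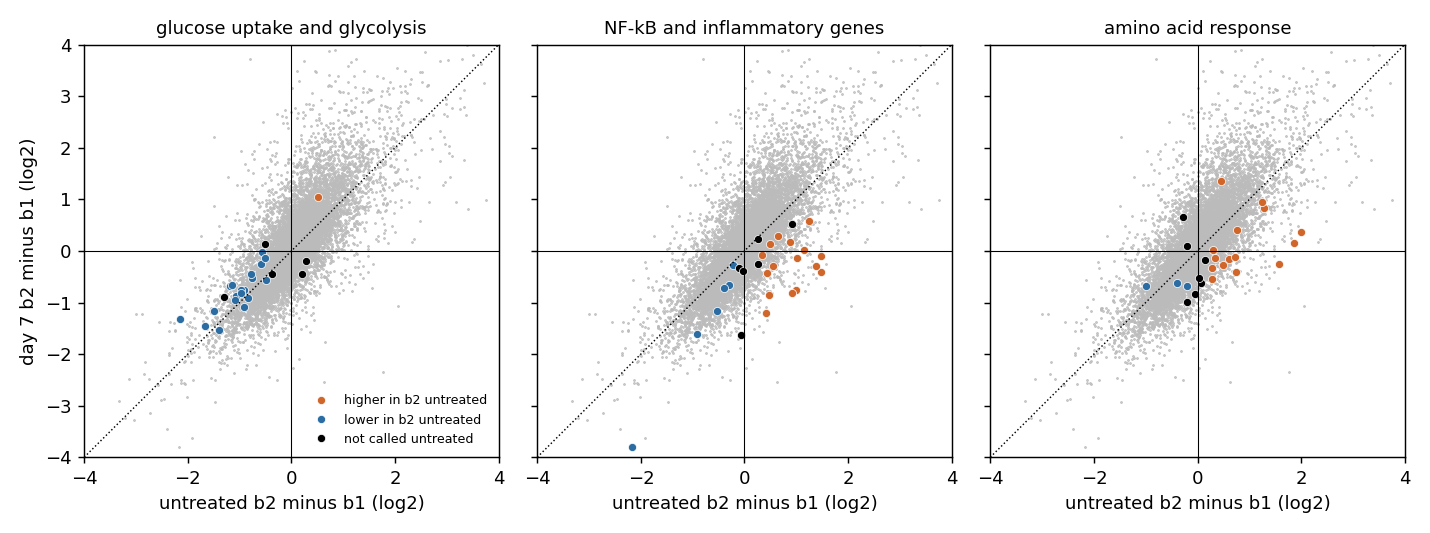
Difference between b2 and b1 (log2) in untreated cells on the x axis and after 7 days of doxycycline on the y axis, for 3 gene lists over all 11876 genes tested in both (grey; 41 genes lie outside the axes). Orange members were called higher and blue members lower in b2 untreated; the glycolysis members lie near the dotted line of equal difference, and the inflammatory and amino acid response members called higher in untreated cells lie mostly below it.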

How the data were processed

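The members and gene lists were chosen with earlier results of these data known. The authors deposited raw UMI counts per gene, used here as deposited; per the submitters' processing notes, reads were handled with bcl2fastq, cutadapt, STAR 2.4.2a, HTSeq and DESeq2 on hg38. The table holds 15230 genes and 11 libraries; 33 other per-sample columns, 11 of them named combat, were not used. Genes passing filterByExpr were tested with edgeR 4.0.16 (TMM, robust quasi-likelihood fit, Benjamini-Hochberg adjustment over all genes tested), the untreated libraries alone, the day 7 libraries alone, and all 11 for the interaction. On simulated data of the untreated design, the test recovered 65% of 1.5-fold and 92% of 2-fold changes. For the day 7 design it recovered 28% and 72%, and for the interaction 21% and 63%. All simulations used the spread of the untreated fit, and changes were placed only in genes above a minimum mean count. That spread, as a common coefficient of variation, was 0.072, against 0.108 at day 7 and 0.090 for the interaction. Recovery in the real day 7 and interaction data may therefore be lower. A gene not called at day 7 or by the interaction may therefore still have changed. Counts per library limit precision for genes of few CPM. Of the genes, 98.8% matched GENCODE release 29; promoters are from RefSeq.

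Named genes were the 15 largest called rises and falls (mean of at least 20 CPM, no overlap), and of each list the 5 called members with the smallest p in each direction, those at least 2-fold changed, up to 3 abundant members not called, and every mitochondrially encoded and IDH family member. SLC2A1, HK1, HK2, GAPDH, ENO1, PHGDH, ATF4, ALDOA and PFKFB2 were named after their values were seen, as were the motifs and the GC and A-window offsets. DESeq2 1.42.0, limma-voom (limma 3.58.1), other scalings, filters, thinning, a replicate block and leaving out each library were the alternatives. Replicate numbers are shared only by libraries 1 and 2. Results for some genes under the naming rule are not reported here.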

Additional observations from a re-analysis of the deposited data

Results flagged for a closer look

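For 31 of the genes named in the text, the difference between b2 and b1 was not the same in untreated and day 7 cells by the interaction test (edgeR adjusted p under 0.05 over all genes tested). Each value below is the day 7 difference minus the untreated difference on the log2 scale, and each rests on the 1 b1 library of day 7. Among inflammatory genes it was -1.75 for CXCL1, -1.89 for CXCL2, -1.67 for CXCL3, -1.73 for CXCL6, -1.15 for IL6, -0.71 for NFKBIA, -1.14 for NFKBIZ, -0.67 for SOD2 and -0.68 for ICAM1. Antigen presentation genes also had negative values: -0.86 for HLA-B, -0.59 for HLA-C, -0.70 for TAPBP, -0.79 for PSMB8 and -1.39 for PSMB9. Of the amino acid response, PSAT1 had -1.64, PCK2 -1.84, PHGDH -0.76 and ATF4 -0.48.

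Positive values were found for the hypoxia targets ANGPTL4 (1.58), NDRG1 (1.03) and BNIP3 (0.57) and the adhesion receptors ITGA2 (1.89) and CD44 (0.44). They were also found for the cell cycle genes TOP2A (1.25), BUB1B (0.97) and RRM1 (1.05), and the chaperone HSP90AA1 (0.65). Negative values were also found for MMP2 (-0.76), COL4A1 (-0.63), EGR1 (-0.76) and the metallothionein MT2A (-0.70).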

How the results depend on the processing

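The count of genes called between the untreated batches (6061) stayed between 4744 (DESeq2) and 6427 (no filter on low counts) in every alternative run. It was 5731 with the GC offset, of which 4565 were shared with the 6061, and 5485 to 5880 without any 1 library. Scaling by library size alone moved the share of higher calls from 48.6% to 57.4% and the median of all genes to 0.07. With the replicate number as a block, 5147 genes were called; only numbers 1 and 2 occur in both batches, and same-numbered libraries did not deviate together (correlations of -0.0176 and 5.9e-05), so that the numbers do not pair the samples. With this block LDHA (-0.37), MT-ATP6 (-0.56), MT-ATP8 (-1.04), MT2A (-0.19) and B2M (0.30) gained a call, AARS1 and MT-CO1 lost it, and 7 of 23 tricarboxylic acid cycle genes were lower. At day 7, 4537 genes were called, 3132 with DESeq2, 3428 with the GC offset and 3851 to 5216 without 1 library.

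The interaction called 326 genes, 240 with DESeq2 and between 195 and 687 without 1 library: 687 without day 7 b2 library 17, 195 without untreated b1 library 2, 216 without b1 library 3 and 205 without b2 library 2. The median of chromosome 16 (0.12) was 0.20 with library size alone and 0.23 with the GC offset, and that of chromosome X (-0.08) was 0.0051 and -0.13. Of the named genes, 127 were called; 7 of these lost the call in some alternative and 4 without 1 library, as given above. MT2A, not called, had 0.27 with the GC offset and 0.32 with the GC and A-window offset. The cause of these changes was not tested. Depth limits genes of few CPM.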

Other observations

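Single lipid, redox and growth factor genes also differed between the untreated batches. Of 24 cholesterol synthesis genes, 5 were called higher and 6 lower in b2, a share called of 45.8% against 50.3% over all genes. INSIG1, the sterol sensor partner, had 50.4, 50.8 and 48.3 CPM in b1 and 121, 104 and 91.8 CPM in b2 (1.08 ± 0.10). The biosynthetic enzymes MVK and DHCR7 differed by -1.02 ± 0.14 and -0.79 ± 0.10, opposite to INSIG1. Among NRF2 and redox genes, 7 of 22 were higher and 8 lower (2 higher with the GC offset); FTH1, the ferritin heavy chain, had 2361, 2267 and 2389 CPM in b1 and 1540, 1193 and 1414 CPM in b2 (-0.78 ± 0.08), while NFE2L2, which encodes NRF2, was higher by 0.83 ± 0.10.

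Of 23 genes of EGF receptor and ERK feedback, 9 were lower and 4 higher. The phosphatases DUSP4 and DUSP5, which act on ERK and its relatives, differed by -0.90 ± 0.11 and -0.94 ± 0.12, and EGR1, an immediate early gene, was higher by 0.62 ± 0.07. TGFA, a ligand of the EGF receptor, had 11.7, 8.53 and 7.28 CPM in b1 and 2.42, 2.01 and 1.08 CPM in b2 (-2.25 ± 0.32). Of the chaperones, HSP90AA1, the inducible HSP90, had 864, 797 and 782 CPM in b1 and 1800, 1671 and 1599 CPM in b2 (1.03 ± 0.07), whereas its constitutive relative HSP90AB1 differed by -0.40 ± 0.07. Among 9 metallothioneins, whose sequences are close enough for reads to be shared, 4 were lower and 2 higher (1 without b1 library 1). MT3, the brain form, differed by -1.94 ± 0.26, and MT2A was not called (-0.06 ± 0.08). Ribosomal protein genes were 14 higher and 14 lower of 41.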
